A study of Homo sapiens with 4 samples.

Results

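The 10 genes described here, MPO, ELANE, AZU1, PRTN3, CTSG, LYZ, CFD, MS4A3, CST7 and SRGN, encode granule enzymes and related secretory proteins of promyelocytes, the white-cell precursors in which the first granules are made. They were chosen by name, and all 10 were found among the 58735 gene rows of the expression table, matched by gene identifier to the GENCODE release 44 annotation. RNA-seq was performed on 4 libraries labelled NB4, a cell line derived from acute promyelocytic leukemia (APL). The 2 control libraries came from cells with no treatment, and the 2 GNE-987 libraries from cells given GNE-987, a small-molecule compound. The study's legends give 25 nM for 24 h. A vehicle for the control cells was not given in the labels. No label says that replicates came from separate cultures, so the p-values measure only the spread between these libraries, which may be technical.

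Primary, or azurophil, granules are membrane-bound stores that hold peroxidase, serine proteases and antimicrobial proteins. Their genes are transcribed for a short window at the promyelocyte stage, under PU.1, C/EBP, RUNX1 and MYB proteins, and the products are then kept for the life of the neutrophil. The proteases are made as inactive precursors, trimmed by cathepsin C and held on serglycin, a proteoglycan whose negatively charged sugar chains bind basic proteins. In patients, APL blasts are packed with such granules and stain strongly for myeloperoxidase.

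Expression was measured as FPKM, the number of fragments scaled to transcript length and library size. Whole reads were worked back from the spacing of low FPKM values, and reads on genes came to 19436226 and 19225114 in the control libraries and to 12343509 and 12847894 in the GNE-987 libraries. Lengths of many genes were found by search, and a multiple of a fitting length also gives whole reads. These totals, and the ratios, mitochondrial shares and shift drawn from them, are therefore estimates. The deposited values were not scaled to those totals. The total implied by the scaling was 1.18 and 1.15 times the reads on genes in control and 0.677 and 0.687 times in GNE-987, so that scaling to total reads shifts log2 differences by −0.78. Mitochondrial genes held 3.75% and 4.54% of reads in control and 15.7% and 15.3% in GNE-987. A gene was tested when its mean over the 4 libraries reached 0.5 FPKM, which 16668 genes did, with limma on log2(FPKM + 0.1). It was called when the unadjusted P was below 0.05 and the fold change above 2 or below 0.5. These thresholds were taken from the study's methods. All folds below are on this log2 scale, which understates the change of low genes. In bulk RNA, a change in the number of cells that express a gene and a change in RNA per cell cannot be told apart.

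The labelled cell type was checked against 21 promyelocyte and other myeloid markers besides the granule genes. In the control libraries 20 of the 21 had a mean under 1 FPKM, and 9 were listed at 0 in both. The exception was FUT4, which makes the CD15 sugar epitope, at 4.87 and 4.89 FPKM, followed by CD33 at 0.836 and 0.915 FPKM. Over the 21 markers the summed level was 6.39 and 6.84 FPKM in control. By contrast, 17 erythroid markers summed to 815 and 799 FPKM in control, led by the transferrin receptor gene TFRC at 243 and 270 FPKM and the erythroid factor GATA1 at 124 and 122 FPKM. The control libraries therefore went against the label on both counts, and they are called here by it only as a name.

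Promoter sequences were taken from RefSeq (build GRCh38.p14), whose table held 5 of the 10 genes, AZU1, PRTN3, CTSG, CFD and MS4A3. Entries for MPO, ELANE, LYZ, CST7 and SRGN were missing. The 150 bases before the RefSeq start of 4 of them are shown because AZU1, PRTN3 and CFD are neighbours on chromosome 19 with different values, and because CTSG was listed at 0 in every library. Capitals mark matches, on either strand, to short cores bound by factors of blood cells. The core searched for PU.1, a factor of all myeloid cells, was GAGGAA. That for the C/EBP family of granulocyte factors was TTNCNNAA. RUNX proteins were represented by the letters TGTGGT, and the erythroid GATA factors by the letters AGATAA. The last core, for the progenitor factor MYB, was CAACNG. No matches overlapped each other, and positions are counted from the RefSeq start, with −1 the base before it.
AZU1, chr19:827687-827836, plus strand: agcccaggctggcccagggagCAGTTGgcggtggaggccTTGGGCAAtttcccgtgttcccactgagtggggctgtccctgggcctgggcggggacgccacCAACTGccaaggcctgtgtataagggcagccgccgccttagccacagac
PRTN3, chr19:840849-840998, plus strand: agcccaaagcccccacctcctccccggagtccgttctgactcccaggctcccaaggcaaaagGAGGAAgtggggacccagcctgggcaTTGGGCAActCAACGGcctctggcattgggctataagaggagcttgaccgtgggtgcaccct
CFD, chr19:859514-859663, plus strand: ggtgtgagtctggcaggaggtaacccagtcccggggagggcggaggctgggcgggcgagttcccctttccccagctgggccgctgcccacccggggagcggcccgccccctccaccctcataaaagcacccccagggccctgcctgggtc
CTSG, chr14:24576251-24576400, minus strand: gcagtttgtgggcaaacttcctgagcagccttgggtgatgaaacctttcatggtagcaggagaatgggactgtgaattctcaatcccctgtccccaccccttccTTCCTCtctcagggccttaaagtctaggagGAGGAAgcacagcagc

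The AZU1 and PRTN3 windows share the C/EBP letters TTGGGCAA, whose first base lies at −111 and −62. AZU1 also held MYB cores at −129 and −49, and PRTN3 a PU.1 core at −88 and a MYB core at −52. CTSG held PU.1 cores at −46 and −16, and CFD held no match to any of the 5 cores. The MS4A3 window, which partly lies in a GENCODE 5′ untranslated exon and is not printed, held a C/EBP core at −68 and a GATA core at −55. These letters are common. Of 35116 RefSeq windows of the same length, 20% held the C/EBP core, 17.5% the MYB core, 14.8% the PU.1 core, 6.59% the RUNX core and 5.17% the GATA core, and a match describes the sequence only. The GENCODE gene begins 2740 bases before the RefSeq start for AZU1, 211 for CFD and 78 for MS4A3, and at the same base for PRTN3 and CTSG.

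Most of the granule genes were low in the control libraries, and MPO, AZU1, LYZ, MS4A3 and SRGN were higher with GNE-987. In control, 7 of the 10 had a mean under 1 FPKM and CFD alone exceeded 5 FPKM. Of the 10 genes, 7 were tested, 5 were called higher, 0 were called lower and 2, PRTN3 and CFD, were not called. By the same rule 33.6% of all tested genes were called higher and 24.9% lower. MPO and MS4A3 passed the filter on low values only through the GNE-987 libraries and so had to differ, so the count over tested members gives no support of its own. The filter left out ELANE, CTSG and CST7, whose values are given below without a test, and the member just inside it was MS4A3, with a mean of 0.537 FPKM, against 0.186 FPKM for CST7 just outside. The summed level of the 10 genes was 34.0 and 32.2 FPKM in control and 62.8 and 66.1 FPKM with GNE-987, and without CFD it was 5.18 and 5.77 against 39.1 and 35.9 FPKM.

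**Figure D1:**
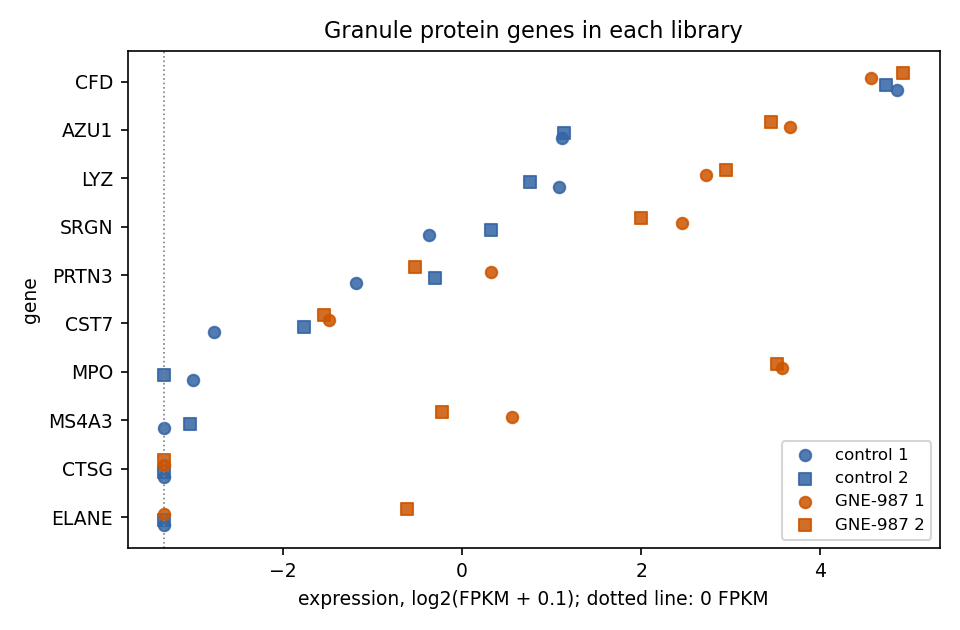
Expression of the 10 genes, as log2(FPKM + 0.1), in each library, with genes ordered by their control mean and the dotted line at 0 FPKM. MPO moved from at most 0.0246 FPKM in control to 11.3 and 11.8 FPKM with GNE-987, while the CFD libraries of the 2 groups overlapped.

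MPO (ENSG00000005381, hg38 chr17:58269855-58280935, minus strand) encodes myeloperoxidase, the haem enzyme that makes hypochlorous acid and the classical stain of the promyelocyte. Its level was 0.0246 and 0 FPKM in control, which rests on 2 reads in the first library and none in the second. With GNE-987 it was 11.8 and 11.3 FPKM, from 348 and 353 reads. The groups were far apart, and the GNE-987 mean of 11.6 ± 0.327 FPKM (SD, n = 2) stood above 74.7% of the tested protein-coding genes in those libraries. The log2 fold change was 6.71 ± 0.19 (SE; 95% interval 6.17 to 7.25; limma adjusted p = 0.000166). The ratio of scaled reads was 921, with a 95% counting interval of 254 to 7617 that covers counting error only. The fitted fold also depended on the pseudocount, at 3.63 with 1 and 9.28 with 0.01. MPO was the member with the highest fold, and its call held under all 16 alternatives. It passed the filter only through the GNE-987 libraries and so had to differ. Median-ratio scaling, among the alternatives, had factors that differed between groups by 6.42e-10 on the log2 scale and so nearly repeated the main fit.

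Around MPO, both genes within 30 kb that exceeded 1 FPKM were called higher as well. LPO, the gene for lactoperoxidase on the opposite strand 1.336 kb away, was at 0.0135 and 0.00703 FPKM in control and 1.95 and 1.32 FPKM with GNE-987 (log2 fold change 3.95 ± 0.34; limma adjusted p = 0.00121). TSPOAP1, which lies upstream of MPO on the same strand with 20.3 kb between them, was at 2.94 and 3.28 against 12.6 and 13.3 FPKM (log2 fold change 2.02 ± 0.09; limma adjusted p = 0.000279). Scaled to GAPDH, TSPOAP1 was at 0.20 and was not called. EPX, the eosinophil peroxidase gene, rose from 0.225 and 0.2 to 5.48 and 6.07 FPKM (log2 fold change 4.23 ± 0.15; limma adjusted p = 0.000211). The 3 haem peroxidase genes named here, MPO, LPO and EPX, were called higher on the deposited scale, scaled to total reads and scaled to GAPDH, but each passed the filter on low values only through the GNE-987 libraries and so had to differ.

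The genes of 3 neutrophil serine proteases or their homologues and of complement factor D form a cluster. AZU1, PRTN3, ELANE and CFD lie in that order on the plus strand of chromosome 19 within 42.788 kb, separated by 8.98, 2.838 and 3.205 kb. AZU1 alone of these 4 was called, PRTN3 and CFD were tested and not called, and ELANE fell under the filter. Whether the changes of AZU1 and its neighbours differ from each other was not tested.

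AZU1 (ENSG00000172232, hg38 chr19:825097-832018) encodes azurocidin, a serine protease homologue that has lost catalytic activity and acts as an antimicrobial and chemoattractant protein. It stood at 2.07 and 2.10 FPKM in control, from 85 and 83 reads. With GNE-987 it was at 12.6 and 10.9 FPKM, from 188 and 171 reads. The control libraries were nearly equal, and both GNE-987 libraries lay well above them. AZU1 rose by 2.43 ± 0.10 on the log2 scale (SE; 95% interval 2.14 to 2.73; limma adjusted p = 0.000273), and the ratio of scaled reads was 5.61 (95% counting interval 4.66 to 6.78).

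PRTN3 (ENSG00000196415, hg38 chr19:840999-848175) encodes proteinase 3, an elastase-like enzyme that is also the target of autoantibodies in vasculitis. Its values were 0.341 and 0.710 FPKM in control, from 9 and 18 reads, and 1.15 and 0.593 FPKM with GNE-987, from 11 and 6 reads. The groups overlapped, and more reads were counted in the deeper control libraries. The difference was 0.64 ± 0.48 on the log2 scale with an interval from −0.73 to 2.01 (limma adjusted p = 0.289), so that neither a rise of over 2-fold nor a small fall was outside it. Its sign turned with the scaling, to −0.95 when libraries were scaled to GAPDH and −0.027 when scaled to total reads.

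ELANE (ENSG00000197561, hg38 chr19:851014-856247), the gene for neutrophil elastase, was listed at 0 in 3 libraries, the pair of controls and the first GNE-987 library. In the second GNE-987 library it was at 0.551 FPKM, from 5 reads. A single library thus carried all of its signal, and no test was made. A count of 3 reads would be 0.127 and 0.132 FPKM in control and 0.349 and 0.331 FPKM with GNE-987.

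CTSG (ENSG00000100448, hg38 chr14:24573518-24576250), for cathepsin G, the chymotrypsin-like enzyme of the same granules, was listed at 0 in all 4 libraries. Its 3-read limits were 0.0952 and 0.0991 FPKM in control and 0.262 and 0.248 FPKM with GNE-987. Expression below these levels was not detectable at this depth, and the limit was looser in the shallower GNE-987 libraries. No gene within 30 kb of CTSG reached 1 FPKM in either group.

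CFD (ENSG00000197766, hg38 chr19:859453-867884) encodes complement factor D, the serine protease that cleaves factor B in the alternative pathway and that is secreted as well as stored. It was the most abundant of the 10 in every library, at 28.9 and 26.5 FPKM in control, from 1624 and 1430 reads. With GNE-987 it was at 23.7 and 30.2 FPKM, from 484 and 652 reads. The CFD counts are all even and rest on a searched length of 2444 bases, beside 1818 in GENCODE. A shorter length would also give whole reads, so the counts may be too high by a common factor. The GNE-987 libraries lay on either side of the control libraries. The difference of −0.05 ± 0.14 on the log2 scale had an interval of −0.44 to 0.35 (limma adjusted p = 0.780), which leaves out a 2-fold change in either direction on the deposited scale. Scaled to GAPDH, CFD was called lower instead, by −1.89. Scaled to total reads it was at −0.82 (limma adjusted p = 0.0107), a fall short of the fold threshold, and after quantile normalization at −0.36.

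Of the genes that flank the cluster, PLPPR3 was called. It lies on the minus strand 3.141 kb from AZU1 and rose from 19.5 and 15.9 to 39.8 and 37.5 FPKM (log2 fold change 1.13 ± 0.12; limma adjusted p = 0.0019). PTBP1, a splicing regulator gene that ends 12.8 kb before the AZU1 start, was at 116 and 118 against 137 and 136 FPKM and was not called. MED16, a Mediator subunit gene whose 3′ end overlaps that of CFD by 255 bases on the other strand, was at 26 and 23.8 against 15.0 and 13.9 FPKM, a log2 difference of −0.78 ± 0.07 that did not reach the fold threshold. The kit named in the labels does not mark strand, so reads in the overlap cannot be assigned to CFD or MED16. R3HDM4, beyond MED16, was at 49.9 and 45.9 against 35.6 and 35.3 FPKM and was not called. RNU6-9, a small nuclear RNA gene 25.6 kb from CFD, was listed at 0 in control and in the first GNE-987 library. It was at 3.18 FPKM in the second GNE-987 library and was not called.

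**Figure D2:**
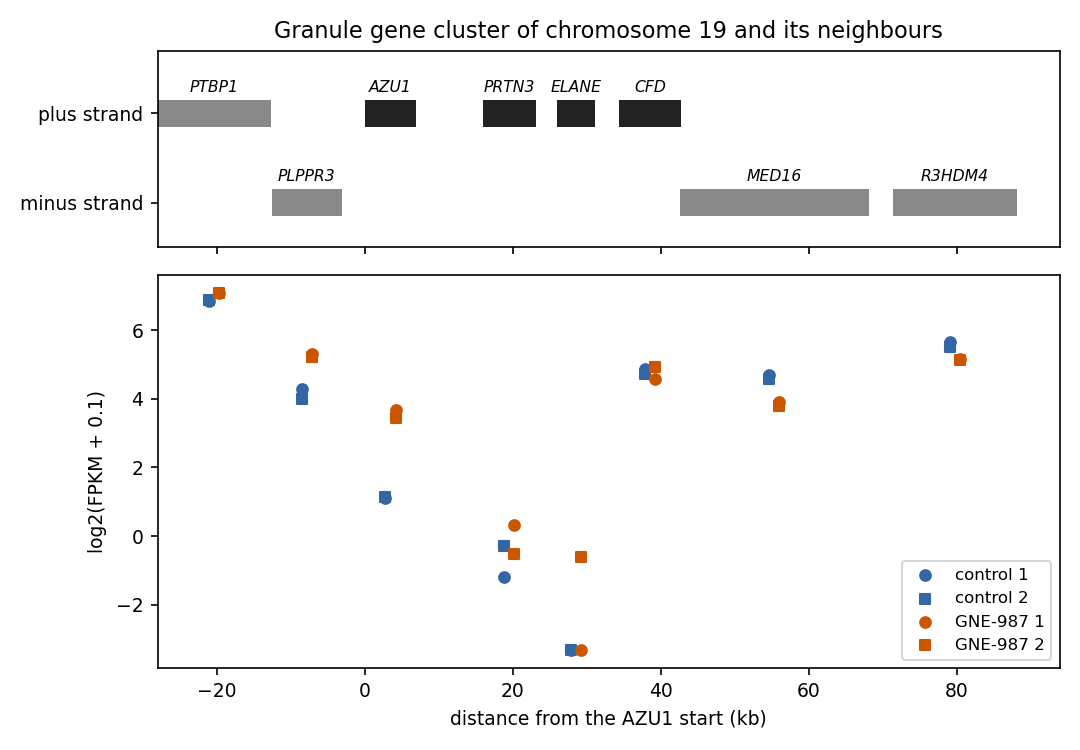
Upper panel, gene bodies of the granule cluster (black) and its neighbours (grey) by strand and by distance in kb from the AZU1 start, and lower panel, log2(FPKM + 0.1) of each gene in each library at the gene's midpoint. AZU1 and PLPPR3 were higher in both GNE-987 libraries and called, whereas the CFD points of the groups overlapped and ELANE was above 0 in a single library.

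LYZ (ENSG00000090382, hg38 chr12:69348381-69354234) encodes lysozyme, which cuts bacterial peptidoglycan and, unlike the azurophil proteases, is made through all stages of granulocyte and monocyte maturation. It was at 2.02 and 1.59 FPKM in control, from 82 and 62 reads. With GNE-987 it was at 6.51 and 7.64 FPKM, from 96 and 119 reads. The groups did not overlap. LYZ rose by 1.92 ± 0.16 on the log2 scale (95% interval 1.45 to 2.39; limma adjusted p = 0.00118). YEATS4, the next gene on the same strand 5.475 kb downstream, went the other way, from 14.2 and 12.8 to 2.72 and 1.26 FPKM (log2 fold change −2.80 ± 0.39; limma adjusted p = 0.00448).

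SRGN (ENSG00000122862, hg38 chr10:69088103-69104805) encodes serglycin, the core protein of the proteoglycan on which granule proteases are packed. In control it stood at 0.676 and 1.15 FPKM, from 19 and 31 reads. The GNE-987 libraries held 5.39 and 3.90 FPKM, from 55 and 42 reads. Both GNE-987 libraries were above both control libraries. SRGN rose by 2.25 ± 0.32 on the log2 scale (95% interval 1.36 to 3.15; limma adjusted p = 0.00449). The difference was 2.02 without the first GNE-987 library and 2.48 without the second. VPS26A, 18.7 kb downstream, was at 18.8 and 18.7 against 23.5 and 22.2 FPKM and was not called.

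MS4A3 (ENSG00000149516, hg38 chr11:60056587-60071115) encodes a membrane-spanning protein of granulocyte and monocyte progenitors and of basophils. It was at 0 and 0.0216 FPKM in control, where 1 read was counted in all. The GNE-987 values were 1.37 and 0.757 FPKM, from 24 and 14 reads. The groups were apart, with nearly all reads in the GNE-987 libraries despite their lower depth. The log2 fold change was 3.35 ± 0.44 (95% interval 2.09 to 4.60; limma adjusted p = 0.0038), and the ratio of scaled reads was 99.8, with a 95% counting interval of 16.9 to 4045. With so few control reads the fold depends on the pseudocount, and was 1.01 at a pseudocount of 1 and 5.86 at 0.01. After quantile normalization MS4A3 was not called (1.34; limma adjusted p = 0.143). OOSP4B, 25.5 kb from it, was listed at 0 in control and reached 0.914 and 1.13 FPKM with GNE-987, and was called higher (log2 fold change 3.48; limma adjusted p = 0.0018). Like MS4A3, it passed the filter only through the GNE-987 libraries and so had to differ.

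CST7 (ENSG00000077984, hg38 chr20:24949269-24959928) encodes cystatin F, an inhibitor that enters granules and acts on cathepsin C and other cysteine proteases. It was at 0.0467 and 0.194 FPKM in control and at 0.257 and 0.244 FPKM with GNE-987, but these values rest on 1 and 4 reads and on 2 and 2 reads. The ratio of scaled reads of 2.10 had a 95% counting interval of 0.417 to 9.76, so no difference was detectable at this depth. APMAP, on the other strand 2.996 kb away, was at 19.2 and 20.6 against 16.3 and 19.1 FPKM and was not called.

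Per length of transcript, the order of the control means was CFD at 27.7 ± 1.7 FPKM (SD, n = 2), AZU1 at 2.09 ± 0.0239, LYZ at 1.80 ± 0.304, SRGN at 0.913 ± 0.334 and PRTN3 at 0.526 ± 0.261, with CST7, MPO, MS4A3, ELANE and CTSG below. SRGN and PRTN3 overlapped each other, as did MPO and MS4A3. With GNE-987 the order was CFD at 27.0 ± 4.62 FPKM, AZU1 at 11.7 ± 1.23, MPO at 11.6 ± 0.327, LYZ at 7.08 ± 0.802, SRGN at 4.65 ± 1.05, MS4A3 at 1.06 ± 0.434 and PRTN3 at 0.871 ± 0.392, and then ELANE, CST7 and CTSG. AZU1 and MPO overlapped in range, and so did MS4A3 and PRTN3. MPO thus passed from among the lowest of the 10 genes to the level of AZU1, which stood above 28.0% of tested protein-coding genes in control and 74.9% with GNE-987.

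The calls depended on how the libraries were scaled. Scaling to GAPDH shifted log2 differences by −1.85, since that gene was itself higher with GNE-987. On that scale 2 members (MPO and MS4A3) were called higher and 1 (CFD) lower, with log2 differences of 0.62 for AZU1, 0.12 for LYZ and 0.50 for SRGN. That scaling moved the median of all tested genes from 0.17 to −1.59, and 3031 genes were then called higher and 9738 lower, against 5602 and 4148 on the deposited scale. Subtracting the median of all tested genes undoes most of a scaling that moves all genes alike. Relative to that median, AZU1 was at 2.26 on the deposited scale and 2.21 scaled to GAPDH, LYZ at 1.74 and 1.71, SRGN at 2.08 and 2.09, CFD at −0.22 and −0.30, PRTN3 at 0.46 and 0.64, MS4A3 at 3.17 and 4.03, and MPO at 6.53 and 7.26. After quantile normalization, MS4A3 was at 1.58 and PRTN3 at −0.65. Scaled to total reads, the same 5 members were called higher, with AZU1 at 1.68, LYZ at 1.17 and SRGN at 1.52. CFD was at −0.82 and not called, and over all tested genes 4184 were called higher and 6637 lower.

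**Figure D3:**
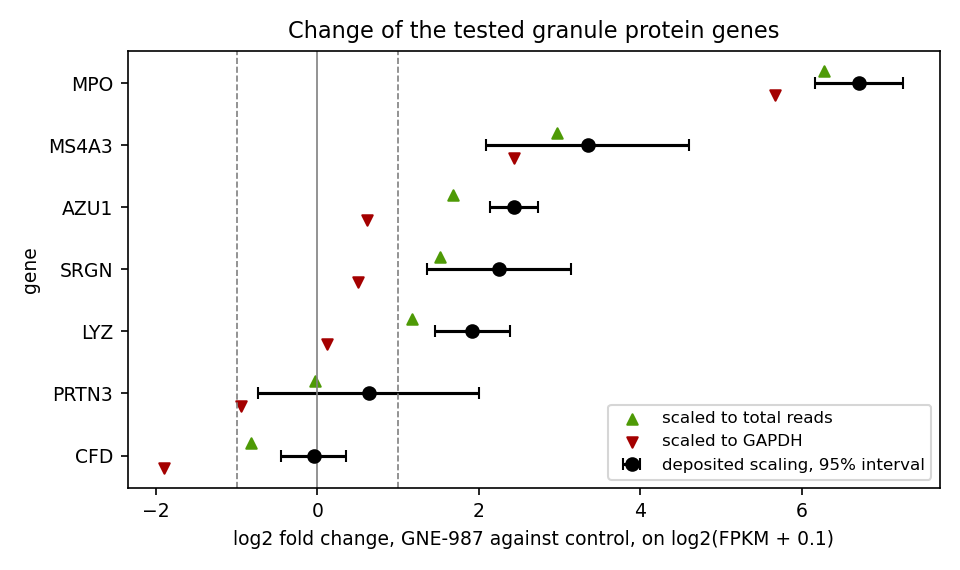
Log2 fold change of the 7 tested genes, GNE-987 against control, on log2(FPKM + 0.1), with 95% intervals from limma (black points) and the same difference after scaling to total reads (up triangles) or to GAPDH (down triangles). Dashed lines mark 2-fold; MPO and MS4A3 lay beyond it under each of the 3 scalings, and PRTN3 and CFD had intervals that span 0.

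A further list held 34 genes for other azurophil, specific and tertiary granule proteins and for eosinophil proteins such as EPX. Of these, 15 were listed at 0 in all 4 libraries, among them the defensin genes DEFA1, DEFA3 and DEFA4, BPI, LTF for lactoferrin, CAMP for cathelicidin and MMP8. The filter left 10 to be tested, of which 5 were called higher and 1 lower, beside 33.6% higher and 24.9% lower over all tested genes. Their median log2 difference was 1.17 against 0.17 over all tested genes. Besides EPX, the higher genes were MMP25, a membrane-anchored metalloprotease (0.253 and 0.142 against 4.55 and 3.16 FPKM), PRSS57, a further azurophil serine protease (0.677 and 0.415 against 2.96 and 1.77 FPKM), CYBA, a subunit of the NADPH oxidase (41.0 and 37.9 against 156 and 153 FPKM) and CD63, a granule membrane tetraspanin (67.6 and 65.2 against 190 and 192 FPKM). CYBA and CD63 are expressed in many cell types. EPX and MMP25, and PI3, XYLT1, CEBPE and KLF5 of the lists that follow, passed the filter only through the GNE-987 libraries. XYLT2 of those lists passed it only through the control libraries. Such genes had to differ. The lower gene was STOM, at 20.8 and 23.6 against 9.84 and 8.93 FPKM, which encodes stomatin, a membrane protein also known from red cells. With no filter on low values 9 of this list were called higher. Scaled to GAPDH, 2 were called higher and 4 lower, and scaled to total reads 4 were called higher and 3 lower.

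Of 19 genes for the processing and inhibition of granule proteases, 12 were tested and 4 were listed at 0 in all libraries. Calls were 5 higher and 1 lower, beside 33.6% higher and 24.9% lower over all tested genes. The lower gene was CTSC, for cathepsin C, which activates the serine proteases, at 20.3 and 19.8 FPKM in control and 8.34 and 7.97 FPKM with GNE-987 (log2 fold change −1.29 ± 0.06; limma adjusted p = 0.000284). The higher genes were CTSB (12.2 and 12.2 against 81.2 and 79.2 FPKM) and CTSD (6.20 and 4.93 against 16.0 and 16.1 FPKM), which encode lysosomal cathepsins, the cystatin genes CST3 (34.8 and 27.7 against 112 and 118 FPKM) and CSTB (15.6 and 14.7 against 57.7 and 55.4 FPKM), and PI3. PI3, for the elastase inhibitor elafin, was listed at 0 in control and was at 2.90 and 3.53 FPKM with GNE-987. Scaled to GAPDH, 1 of this list was called higher and 6 lower, and scaled to total reads 4 were called higher and 5 lower.

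Of 18 genes for enzymes that build the sugar chains of serglycin, 14 were tested, 1 was called higher and 7 lower, beside 33.6% higher and 24.9% lower over all tested genes. Their median log2 difference was −0.78, beside 0.17 over all tested genes and −0.29 over the protein-coding ones, and no test was made of the list. Among the lower genes were XYLT2, a xylosyltransferase that starts the chain (1.79 and 1.88 against 0.481 and 0.456 FPKM), B4GALT7 and B3GALT6, which add its first galactoses (4.55 and 4.51 against 0.898 and 1.43 FPKM, and 13.6 and 13.3 against 2.21 and 2.29 FPKM), and the xylose kinase gene FAM20B (24 and 25.7 against 4.30 and 4.92 FPKM). EXT2 and NDST1, which act on heparan sulfate, fell as well, with log2 fold changes of −1.36 and −3.13. XYLT1, the other xylosyltransferase gene, was the higher gene, at 0.0118 and 0.0205 against 1.12 and 0.999 FPKM. Scaled to GAPDH, 1 was still called higher and 12 were called lower, and scaled to total reads 1 was called higher and 9 lower.

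Of 15 genes for regulators of granule genes, 12 were tested, 3 were called higher and 4 lower, beside 33.6% higher and 24.9% lower over all tested genes. MYB fell from 27.9 and 30.1 to 1.11 and 1.79 FPKM (log2 fold change −4.26 ± 0.25; limma adjusted p = 0.000475), LEF1 from 3.32 and 2.77 to 0.469 and 0.613 FPKM, CEBPB from 17.2 and 15.0 to 5.81 and 5.50 FPKM and CEBPD from 3.91 and 3.42 to 1.48 and 1.98 FPKM. CEBPE, which drives the later steps of granule formation, rose from 0.0559 and 0.116 to 1.46 and 2.70 FPKM, KLF5 from 0.212 and 0.209 to 2.46 and 1.54 FPKM, and RARA, the retinoic acid receptor gene that is joined to PML in APL, from 6.56 and 5.43 to 38.9 and 39.5 FPKM (log2 fold change 2.70 ± 0.11; limma adjusted p = 0.000248). Values per gene do not show whether RARA reads came from a fusion transcript. SPI1, the gene for PU.1, was at 7.52 and 5.68 against 4.80 and 3.23 FPKM, a log2 difference of −0.72 ± 0.26 that was not called (limma adjusted p = 0.0653). Scaled to GAPDH, 2 (CEBPE and KLF5) were called higher and 9 lower, SPI1 among the latter. Scaled to total reads, 3 were called higher and 9 lower, again with SPI1 among the latter, at −1.48.

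Of the 21 myeloid markers 6 were tested, 4 were called higher and 2 lower, and the 4 higher ones passed the filter on low values only through the GNE-987 libraries, so that they had to differ. The summed level of the 21 was 152 and 154 FPKM with GNE-987 against 6.39 and 6.84 FPKM in control. The sum was carried by the surface receptors CD14 (0.0921 and 0.12 against 50.4 and 52.2 FPKM), ITGAM (0 and 0.0318 against 56.8 and 58.0 FPKM) and FCGR1A (0.029 and 0 against 40.2 and 37.9 FPKM), and CEBPE, which the list of regulators also holds, was the fourth. FUT4 and CD33 were the lower pair, by −3.03 and −1.07. CD33, with a GNE-987 mean of 0.372 FPKM, passed the filter only through the control libraries and so had to differ. With either control library or the second GNE-987 library left out, or with the replicate block, 1 marker (FUT4) was called lower. The markers FCAR, CLEC12A, TYROBP, MNDA, HGF, S100A8 and S100A9 were listed at 0 in all 4 libraries. Of 17 erythroid markers 16 were tested, 7 were called higher and 6 lower. Over all tested genes 33.6% were called higher and 24.9% lower. HBB, among the higher ones, passed the filter only through the GNE-987 libraries and so had to differ. The erythroid markers summed to 1069 and 948 FPKM with GNE-987 against 815 and 799 FPKM in control, with no marker at 0 in every library. GATA1 fell to 15.1 and 12.5 FPKM and KLF1 from 85.2 and 85.9 to 27.3 and 24.8 FPKM, whereas HBA2 was at 110 and 74.9 against 301 and 263 FPKM and TFRC, at 185 and 177 FPKM with GNE-987, was not called. HBA1 and HBA2 are near-identical, so reads may be split between them. Scaled to total reads, 3 erythroid markers were called higher and 8 lower. After quantile normalization 4 were called higher and 7 lower, and scaled to GAPDH 1 was called higher and 9 lower. The part that these cell type markers and the higher mitochondrial share have in the granule gene values was not tested.

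**Figure D4:**
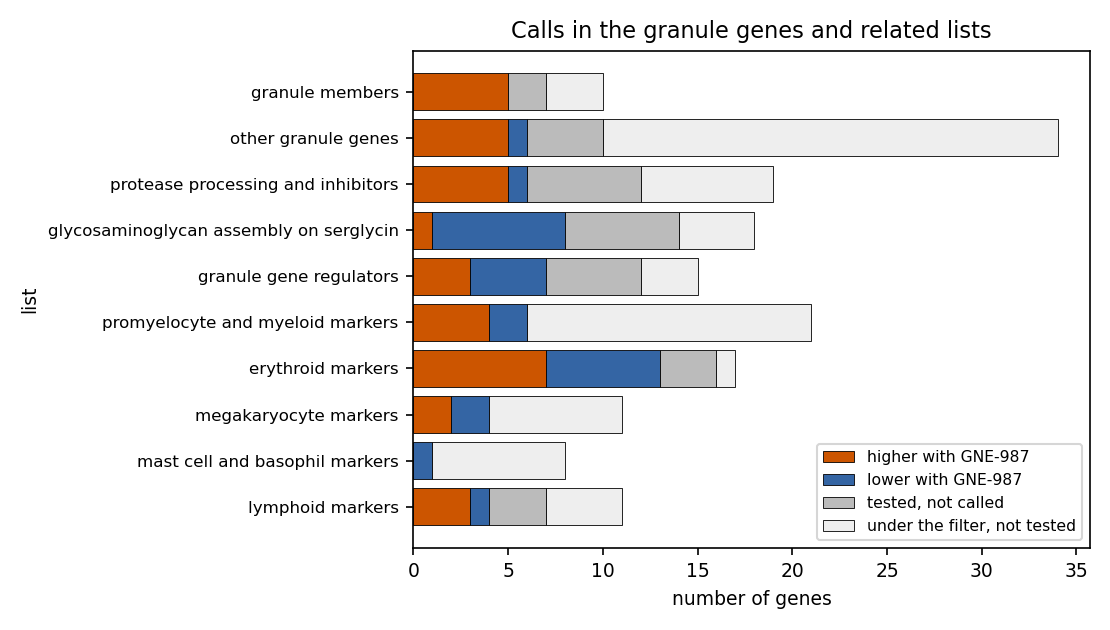
Number of genes called higher, called lower, tested and not called, or under the filter on low values, for the 10 granule genes (granule members) and 9 related lists. The granule members held 5 higher and 0 lower calls, and the genes for glycosaminoglycan assembly 1 higher and 7 lower. Shares over all tested genes were 33.6% higher and 24.9% lower.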

How the data were processed

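RNA was extracted with Trizol and made into libraries with a TruSeq kit, per the labels. The authors mapped reads with HISAT2 2.0.5 to hg38 and deposited 1 table of FPKM per gene. The counting program, annotation and strand setting were not given in the sources used here. The authors' own test was DESeq2. The members and gene lists were chosen with earlier results of these data known.

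Values were tested in R 4.3.3 with limma 3.58.1 (linear model, empirical Bayes with intensity trend, two-sided, Benjamini-Hochberg adjustment over all 16668 tested genes) on log2(FPKM + 0.1), GNE-987 against control, with 2 libraries a group. The procedure was tested on simulated data. Those were scaled to the depth of each library, so that test does not cover the deposited scaling. Each FPKM is a whole number of reads divided by length and a library total. At the GENCODE release 44 exon length 17431 of 32895 genes above 0 (52.99%) gave whole reads within 0.01 read in every library. A whole length was searched for the others, with none found for 70. The fitting length nearest to GENCODE was taken, and where several fit, reads may be off by a common factor. Counting intervals are exact binomial intervals at 95%, and the limit for a listed 0 is 3 reads per library. Intervals and limits cover counting error only. Depth was 12343509 to 19436226 reads on genes per library.

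Every member is named. From each list the called genes are named, at most the 6 with the largest change in each direction, and for marker lists the 4 with the highest control mean. Neighbours are genes within 30 kb above 1 FPKM in either group. Genes of like pattern were to be named for called members with a mean of at least 10 FPKM, and there were 0. Replicate numbers did not pair libraries (correlation of their deviations 0.00537). The alternatives were other pseudocounts (1, 0.01), filters, scalings, limma-voom on recovered reads, stricter thresholds, a replicate block and leaving out each library.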

Additional observations from a re-analysis of the deposited data

How the results depend on the processing

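MPO was called higher under all 16 alternatives, with log2 differences of 3.63 to 9.28. Median-ratio scaling was not a separate check, since the deposited values were already on that scale. Its factors differed between groups by 6.42e-10 on the log2 scale. AZU1 and LYZ lost their call only when scaled to GAPDH (0.62 and 0.12), MS4A3 only after quantile normalization (1.34), and SRGN when scaled to GAPDH (0.50) and without the first GNE-987 library (2.02). Members called higher numbered 2 and lower 1 when scaled to GAPDH, and 4 to 5 and 0 with each library left out. PRTN3 turned to −0.95 scaled to GAPDH, −0.89 after quantile normalization, −0.027 scaled to total reads and −0.0022 with limma-voom. CFD was called lower when scaled to GAPDH (−1.89). It was at −0.82 both scaled to total reads and with limma-voom, and at −0.36 after quantile normalization, short of the fold threshold. With each library left out, CFD ranged from −0.22 to 0.13. With a minimum of 1 FPKM, MS4A3 and PRTN3 were not tested. Over all tested genes, 8757 were called higher with no filter and 3031 scaled to GAPDH, and 9738 were called lower scaled to GAPDH, 6637 scaled to total reads and 6741 with limma-voom. The share of higher genes among those called was 57.5% on the deposited scale, 23.7% scaled to GAPDH, 43.7% after quantile normalization, 38.7% scaled to total reads and 39.0% with limma-voom. With the replicate number as a block, 5 members were called higher and 0 lower, and 5667 genes were called higher and 4186 lower, although the numbers do not pair the libraries. Depth limits ELANE, CTSG, CST7 and PRTN3, each with under 20 reads in any library.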

Other observations

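Markers of 3 further cell types were measured beside the granule genes. Of 11 lymphoid markers 7 were tested, 3 were called higher and 1 lower, and the lower count was 0 without the first control library and 2 without the second GNE-987 library. CD79A, part of the B cell receptor, was at 0.0867 and 0 FPKM in control and 23.4 and 21.4 FPKM with GNE-987, while CD79B and GNLY, for the cytotoxic granule protein granulysin, were listed at 0 in control and stood at 1.5 and 1.85 FPKM and at 4.35 and 4.27 FPKM with GNE-987. PRF1, for the pore-forming protein perforin of the same lymphocyte granules, fell from 1.20 and 0.999 to 0.0944 and 0.268 FPKM, and GZMA and GZMB were listed at 0 in all 4 libraries. CD79A, CD79B and GNLY, and ITGA2B of the next list, passed the filter on low values only through the GNE-987 libraries. PRF1, and TUBB1 and F2RL3 of the next list, passed it only through the control libraries. All of these had to differ. The shares called over all tested genes were 33.6% higher and 24.9% lower. The lymphoid markers had a summed level of 19.9 and 18.1 FPKM in control and 50.9 and 51.1 FPKM with GNE-987.

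Of 11 megakaryocyte markers 4 were tested, beside shares of 33.6% called higher and 24.9% lower over all tested genes. Of the 4, 2 were called higher (ITGA2B and GP1BA, by 2.82 and 1.35 on the log2 scale) and 2 lower (TUBB1 and F2RL3, by −2.34 and −5.22). PF4, GP1BB and SELP were listed at 0 in every library, and the list summed to 14.1 and 16.0 FPKM in control and 6.64 and 8.23 FPKM with GNE-987. Of 8 mast cell and basophil markers GATA2 alone was tested and fell from 73.6 and 71.2 to 28.0 and 28.5 FPKM, and TPSB2, CPA3 and CMA1 were listed at 0 in every library. With no filter on low values, 2 genes of this list were called higher.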
